A study of Mus musculus with 9 samples.

Results

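Splicing factors and RNA helicases were described here in YFP-positive amygdala cells of mice that differ in approach and avoidance behavior. Members were chosen by gene symbol alone: the proteins of the small nuclear ribonucleoprotein particles and the spliceosome core (Snrp, Sf3a, Sf3b, U2af and Prpf genes), the SR and hnRNP proteins (Srsf and Hnrnp genes), the RNA-binding motif proteins (Rbm genes with a number) and the DEAD-box and DEAH-box helicases (Ddx and Dhx genes with a number). Of 12275 genes with values, 149 were members, of which 36 were snRNP and spliceosome core genes, 31 SR and hnRNP genes, 34 Rbm genes and 48 helicase genes. The values came as 2 tables that had been normalized separately. The BA vs AV table listed 9872 genes with 128 members, and 11820 genes with 148 members were listed in the BA vs AP table, and 127 members were in both. Another 22 matching symbols of the annotation, 11 of them protein coding, had no values in either table and were not analysed here.

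All mice were B6.Cg-Tg(Thy1-YFP)HJrs/J mice, in which the Thy1 promoter drives a yellow fluorescent protein mainly in pyramidal neurons. They had been picked from a larger sample by an approach/avoidance conflict task. Mice with balanced behavior (BA) were the reference, mice with avoiding behavior formed the AV group and mice with approaching behavior the AP group. One library was made from the sorted amygdala cells of a single mouse after the task, with 3 BA, 3 AV and 3 AP mice in all. One AV mouse had been taken out by the authors as an outlier, and the values analysed here are those of AV replicates 1 and 3. Age and sex are not given in the sources used here, but every mouse analysed had a clear signal of Ddx3y, a gene of the Y chromosome that only males carry. The Thy1 promoter is also active in other regions and neurons, and behavior was observed, not assigned, so a difference between groups is a difference between selected mice.

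Splicing removes introns from primary transcripts. The Sm proteins form a ring around each spliceosomal small nuclear RNA, SF3A, SF3B and U2AF proteins recognise the branch site and the 3′ splice site, and PRPF proteins build and remodel the complex. SR proteins mostly bind exonic enhancers and favor the use of nearby splice sites, hnRNP proteins often oppose them, and many RBM proteins act on single groups of exons. DEAD-box and DEAH-box helicases use ATP to unwind or remodel RNA and its protein complexes, in splicing, ribosome assembly, export, translation and decay. Neurons use many neuron-specific exons, which makes the level of these factors of interest in brain tissue.

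The labelled cell type was checked against marker genes before any comparison. Of 13 pyramidal neuron markers only Map2, Camk2a, Nrgn and Tubb3 were listed in either table, and the vesicular glutamate transporters Slc17a7 and Slc17a6 were not listed. All 9 oligodendrocyte markers were listed. In the BA vs AV table the summed signal of the 4 neuronal markers was 971 to 1307 in BA mice and 6702 to 9522 in AV mice, while that of the 9 oligodendrocyte markers was 183500 to 227600 in BA mice and 52780 to 81170 in AV mice. The 6 listed astrocyte markers of 8 summed to 10250 to 16130 in BA mice and 30650 to 59340 in AV mice, the 3 listed microglia markers of 11 to 237 to 355 and 722 to 939, and the 2 listed endothelial markers of 5 to 183 to 306 and 148 to 165. In the BA vs AP table the 4 neuronal markers summed to 1182 to 1510 in BA mice and 1313 to 4312 in AP mice, the 11 microglia markers to 1583 to 3202 and 4333 to 7807, and the 9 oligodendrocyte markers to 216100 to 277200 and 220000 to 270800. The 8 astrocyte markers of that table summed to 13140 to 18540 in BA mice and 10790 to 53670 in AP mice, and the 5 endothelial markers to 314 to 482 and 349 to 515. Of 6 inhibitory neuron markers 0 were listed in the BA vs AV table, and only Gad2 in the BA vs AP table. Each group difference below was measured in material whose marker levels moved in this way, and the part of the markers in the results was not tested. In such bulk samples fewer cells of a type and less RNA per cell cannot be told apart. In the BA vs AP table low values lay mostly on steps of 1 read, which gave 3811000 to 6720000 reads per mouse. For the BA vs AV table no depth could be derived and it is unknown.

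**Figure D1:**
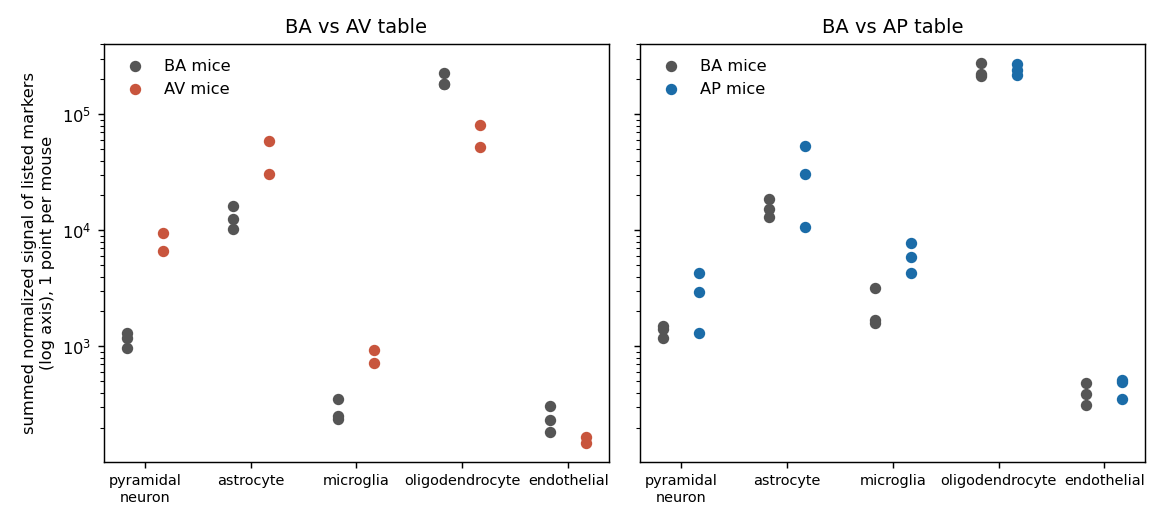
Summed normalized signal of the listed markers of each cell type, on a log axis, with 1 point per mouse, in the BA vs AV table (left) and the BA vs AP table (right). The AV mice lie above the BA mice for neuronal markers (6702 to 9522 against 971 to 1307) and below them for oligodendrocyte markers (52780 to 81170 against 183500 to 227600), and the AP mice lie above the BA mice for microglia markers.

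Most members were well expressed in BA mice. Per kilobase of exon, which allows genes of different length to be compared, 71.0% of the 148 members in the BA vs AP table lay above the median of all listed genes, which was 30.9 units of normalized signal per kb. The SR and hnRNP genes had the highest class median, 149.7 per kb, followed by the Rbm genes with 52.0, the snRNP and spliceosome core genes with 43.7 and the helicases with 34.7. The helicase Ddx5, a coactivator that also acts in splicing, was the highest member at 1007 ± 85 per kb (SD, n = 3), above 99.4% of all genes. Its close relative Ddx17 came next at 575 ± 44 per kb. Then followed Hnrnpa2b1, an RNA-binding protein of transport granules and splicing, at 561 ± 66 per kb, the SR protein gene Srsf5 at 510 ± 107 per kb and the hnRNP gene Hnrnph1 at 415 ± 87 per kb. Ddx17, Hnrnpa2b1, Srsf5 and Hnrnph1 followed each other within the spread of the BA mice, while Ddx5 was higher than all of them in each BA mouse. The highest Rbm gene was Rbm39, a U2AF-related splicing coactivator, at 299 ± 68 per kb. The lowest members were Rbm20 at 1.28 ± 0.34, Ddx25 at 1.47 ± 0.58 and Ddx11 at 1.58 ± 0.56 per kb.

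**Figure D2:**
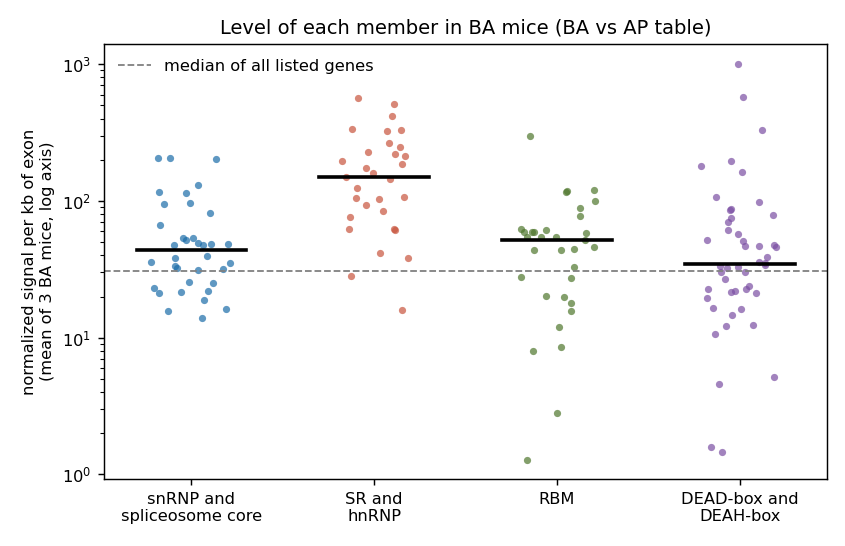
Level of each of the 148 members in BA mice, as normalized signal per kb of exon on a log axis (mean of 3 mice, BA vs AP table), with black bars for class medians and a dashed line for the median of all listed genes (30.9 per kb). The SR and hnRNP genes sit highest, with a median of 149.7 per kb and 93.5% of them above the dashed line, and the helicases spread most widely, from 1.47 to 1007 per kb.

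The comparison of AV with BA mice asked which members differ in level with avoiding behavior. Most members lay lower in AV mice: the log2 fold change, computed on log2(value + 1), was below 0 for 82 of 128 members (64.1%, against 51.5% of all 9872 genes). By limma with Benjamini-Hochberg adjustment over all genes, 16 members fell and 4 rose at an adjusted p under 0.05, together 15.6% of the members where 29.7% of all genes were called. In the lower direction 12.5% of members were called against 16.2% of all genes, and in the higher direction 3.12% against 13.6%. BA and AV mice did not overlap for 66 members, 51.6% against 58.9% of all genes, with 49 lower in AV mice (38.3% against 31.3%) and 17 higher (13.3% against 27.7%). Beside these counts stand the higher neuronal, astrocyte and microglia markers and the lower oligodendrocyte markers of the AV mice, whose part was not tested. The median log2 fold change was -0.19 over the members and -0.03 over all genes. By class the median was -0.54 for the Rbm genes, -0.30 for the SR and hnRNP genes, -0.17 for the snRNP and spliceosome core genes and -0.05 for the helicases. The helicase median was -0.18 without AV replicate 1 and 0.05 without AV replicate 3, so its direction rested on single mice. The snRNP median was -0.09 without BA replicate 1 and -0.10 without AV replicate 3.

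**Figure D3:**
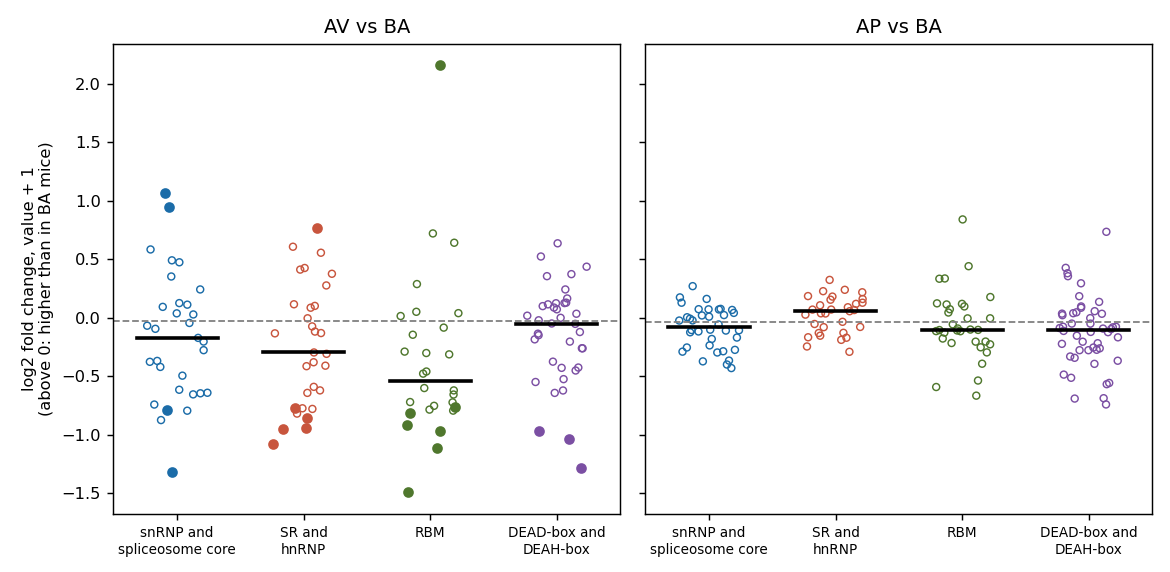
Log2 fold change of each member against BA mice on log2(value + 1), for AV mice (left) and AP mice (right), with filled points for members called by limma at an adjusted p under 0.05, black bars for class medians and dashed lines for the median of all genes. The AV values are shifted below 0 most in the Rbm genes (median -0.54) and hold 20 called members, while the AP values stay closer to 0 and hold 0.

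Few calls held in smaller fits. When each of the 5 mice was left out in turn, only Ddx17, Prpf39 and Rbm20 stayed called every time, and the other 17 lost the call without at least 1 mouse. Without BA replicate 1, 2 or 3 there were 3, 5 and 3 called members, and without AV replicate 1 or 3 there were 18 and 22. The share of all genes called moved as well, from 29.7% to 16.1%, 15.4% and 18.0% without a BA mouse and to 32.1% and 35.4% without an AV mouse. Rbm6, Srsf7 and Srsf9 lost the call whichever mouse was left out. The groups did not overlap for any of the 20 called members, so leaving out a mouse could not change the sign of their fold changes. At an adjusted p under 0.01 Ddx17 alone was called, 0.781% of members against 11.7% of all genes. Read by mouse, the 128 members had a median difference from the BA mean of -0.12 in AV replicate 1 and -0.31 in AV replicate 3, against -0.06 to 0.05 in the BA mice. The Rbm genes were lowest in both AV mice, at -0.39 and -0.54, and the SR and hnRNP genes followed at -0.23 and -0.38. The helicases stood at 0.05 in AV replicate 1 and -0.18 in AV replicate 3.

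**Figure D4:**
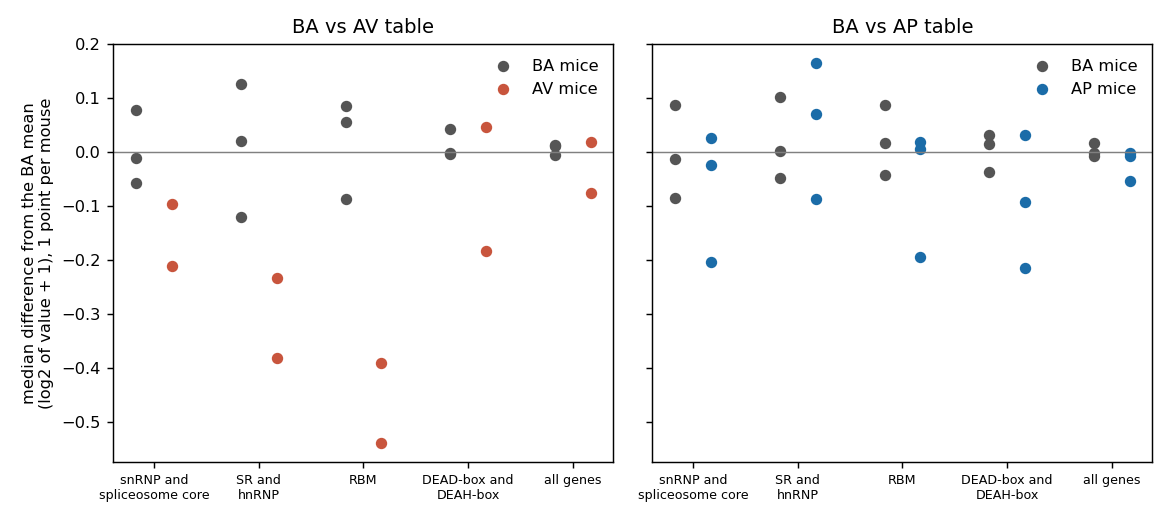
Median difference of the genes of each class from the BA mean on log2(value + 1), with 1 point per mouse, in the BA vs AV table (left) and the BA vs AP table (right). In the Rbm class the 2 AV mice (-0.39 and -0.54) lie below all BA mice, and in the helicases 1 AV mouse lies among the BA mice (0.05) and the other below (-0.18).

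Of the 31 snRNP and spliceosome core genes 2 rose and 2 fell, 12.9% against 29.7% of all genes. Of the 8 Sm ring genes, 6 were listed in the BA vs AV table, of which Snrpg and Snrpn rose and 0 fell, with a median of 0.22. Of the 11 listed Prpf genes 10 were lower in AV mice, where 51.5% of all genes were, Prpf39 and Prpf18 fell, and the median was -0.64. Of the 4 genes of U1 and U2 particle proteins and of the 8 listed SF3A and SF3B genes 0 were called, with medians of 0.30 and -0.17, and 1 and 0 of them passed limma at an unadjusted p under 0.05, which 43.2% of all genes passed. These counts are too small to rank the groups.

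Prpf39 encodes a U1-associated protein of the early spliceosome (GRCm38 chr12:65036333-65063386, plus strand). Its normalized signal was 805, 634 and 995 in BA replicates 1, 2 and 3, and 319.5 and 320.0 in AV replicates 1 and 3. Both AV mice stood below every BA mouse, and the log2 fold change was -1.32 ± 0.26 (SE, limma adjusted p = 0.0117). Its exons share 599 bases with Fkbp3 on the other strand, and whether reads were assigned by strand is not given in the sources used here. Prpf18, a factor of the second splicing step, had 237, 234 and 212 in BA mice and 122 and 142 in AV mice, again without overlap (log2 fold change -0.78 ± 0.22, limma adjusted p = 0.0342). The call on Prpf18 was lost without any 1 of the BA mice or without AV replicate 1. Prpf8, which encodes the core protein around the catalytic center, had 1173, 1502 and 1196 in BA mice and 1242 and 1576 in AV mice. The groups overlapped for Prpf8, with a log2 fold change of 0.13 ± 0.24, and it was the only Prpf gene above 0.

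Snrpn encodes SmN, the Sm protein that takes the place of SmB in brain and that is made from the paternal copy of an imprinted locus (GRCm38 chr7:59982495-60140219, minus strand). It had 346, 437 and 366 in BA mice and 852 and 633 in AV mice. Both AV mice lay above all BA mice, with a log2 fold change of 0.95 ± 0.25 (limma adjusted p = 0.0285). Snrpb, which encodes SmB, had 105, 84.2 and 61.9 in BA mice and 58.2 and 90.4 in AV mice, and the groups overlapped. The ratio of Snrpn to Snrpb signal was 3.30, 5.19 and 5.91 in BA mice, and 14.7 and 7.01 in AV mice. That ratio was higher in both AV mice than in any BA mouse, and the fold change of Snrpb was -0.17 ± 0.32, above 0 without BA replicate 1 (0.01) or AV replicate 1 (0.14). Snrpn shares exons with Snurf on the same strand, so reads of the pair may have been split between them. Snrpg, the gene of SmG, had 26.1, 37.8 and 40.7 in BA mice and 65.3 and 80.7 in AV mice, without overlap (log2 fold change 1.06 ± 0.27, limma adjusted p = 0.0276). The calls on Snrpn and Snrpg were lost without any 1 of the BA mice, that on Snrpn also without AV replicate 1 and that on Snrpg also without AV replicate 3. Sf3b1, the branch-site protein with the highest signal per kb of the SF3B genes, had 1879, 1788 and 2249 in BA mice and 1357 and 1431 in AV mice. Its groups did not overlap, and at -0.49 ± 0.22 it did not pass the test (limma adjusted p = 0.136).

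Among the 31 SR and hnRNP genes 5 fell and 1 rose, 19.4% against 29.7% of all genes. Of the 11 SR genes 9 were lower in AV mice, with a median log2 fold change of -0.41. Of the 20 hnRNP genes 12 were lower, with a median of -0.21, and 51.5% of all genes were lower. Hnrnpa2b1 had 3077, 2809 and 3536 in BA mice and 1531 and 1719 in AV mice (GRCm38 chr6:51460932-51469894, minus strand). Every AV value was below every BA value, and the log2 fold change was -0.95 ± 0.22 (limma adjusted p = 0.0214). Hnrnpdl, a relative of the mRNA-stability factor Hnrnpd, had 1113, 866 and 1281 in BA mice and 592 and 436 in AV mice. It fell by 1.08 on the log2 scale (SE 0.27, limma adjusted p = 0.0258), with no overlap between groups. Hnrnpr, an RNA-binding protein of motor neuron axons, had 665, 632 and 829 in BA mice and 423 and 358 in AV mice. The groups were apart, at a log2 fold change of -0.85 ± 0.24 (limma adjusted p = 0.0348).

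Srsf2, an SR protein of exonic enhancers, had 919, 626 and 937 in BA mice and 358 and 498 in AV mice (GRCm38 chr11:116849901-116853094, minus strand). The groups did not overlap, but BA replicate 2 was closer to the AV mice than the other BA mice were. Its log2 fold change was -0.94 ± 0.29 (limma adjusted p = 0.0465). The exons of Srsf2 share 460 bases with Mettl23 and 288 bases with Mfsd11, both on the other strand. Srsf7, named although the naming rule did not choose it, had 508, 493 and 584 in BA mice and 303 and 316 in AV mice. It fell by 0.77 on the log2 scale (SE 0.21, limma adjusted p = 0.0361), without overlap. Srsf9 was the SR gene that rose, with 53.1, 47.3 and 63.8 in BA mice and 92.6 and 94.3 in AV mice. Both AV mice were above all BA mice, with a log2 fold change of 0.77 ± 0.23 (limma adjusted p = 0.0441). Srsf5 and Hnrnph1, the most abundant SR and hnRNP genes per kb after Hnrnpa2b1, were at -0.78 ± 0.27 and -0.62 ± 0.31 and did not pass the test (limma adjusted p = 0.0670 and 0.175). Each of the 6 calls in this class was lost in some of these fits: that on Hnrnpa2b1 without any 1 of the BA mice, on Hnrnpdl without BA replicate 1 or 3 or AV replicate 3, on Hnrnpr without any BA mouse or AV replicate 3, on Srsf2 without any BA mouse or AV replicate 1, and those on Srsf7 and Srsf9 without any of the 5.

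The Rbm genes had the lowest median and the highest share of calls among the classes: 6 fell and 1 rose of 28, or 25.0%, still under the 29.7% of all genes. Rbm5, a splicing regulator of apoptosis genes, had 1654, 1267 and 1711 in BA mice and 790 and 637 in AV mice (GRCm38 chr9:107740371-107770996, minus strand). The AV mice were below all BA mice, with a log2 fold change of -1.11 ± 0.25 (limma adjusted p = 0.0175). Its neighbor and relative Rbm6, outside the naming rule, had 571, 441 and 563 in BA mice and 329 and 286 in AV mice, and fell by 0.76 on the log2 scale (SE 0.23, limma adjusted p = 0.0483). Rbm26, a cofactor of nuclear RNA decay, had 727, 617 and 941 in BA mice and 360 and 408 in AV mice. Rbm15, which recruits the m6A methylation complex to RNA, had 335, 401 and 453 in BA mice and 183 and 235 in AV mice. Both genes were lower in each AV mouse than in any BA mouse, at log2 fold changes of -0.97 ± 0.26 and -0.92 ± 0.25 (limma adjusted p = 0.0312 and 0.0322). Rbm22, which helps to shape the catalytic RNA core and also lay outside the rule, had 296, 239 and 233 in BA mice and 131 and 160 in AV mice, and fell by 0.81 on the log2 scale (SE 0.23, limma adjusted p = 0.0403). The calls on Rbm26, Rbm15 and Rbm22 were lost without any 1 of the BA mice or AV replicate 1, that on Rbm5 without BA replicate 1 or 3, and that on Rbm6 without any of the 5 mice.

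Of all members Rbm12b2 fell most. It fell by 1.49 on the log2 scale (SE 0.37, limma adjusted p = 0.0254), but it has a near copy, Rbm12b1, on the same chromosome. Rbm12b2 had 262, 249 and 309 in BA mice and 62.6 and 147 in AV mice, and Rbm12b1 had 72.3, 82.8 and 60.7 in BA mice and 143 and 37.5 in AV mice. In AV replicate 1 the copies stood in the opposite order to all other mice of that table, and Rbm12b2 made up 30.4% of their sum there against 75.0% to 83.6% in the other 4 mice. Their sum was 334, 332 and 370 in BA mice and 206 and 185 in AV mice, so that the sum was also lower in both AV mice. The split between near copies is uncertain, and without any 1 of the BA mice the call on Rbm12b2 was lost. The fold change of Rbm12b2 was -2.10 without AV replicate 3 and -0.88 without AV replicate 1 on the log2 scale. That of Rbm12b1 was 0.04 ± 0.52, below 0 when each mouse was centred on its median (-0.04) and -0.91 without AV replicate 1. Rbm20, a regulator of titin splicing in muscle, rose from a very low level: it had 7.01, 3.80 and 9.74 in BA mice and 44.3 and 23.4 in AV mice. The level of 3 reads was at most 5.68 in the BA vs AP table, and the 3.80 of BA replicate 2 was a low value beside it. The BA vs AV table was normalized separately, so the reads behind that value are unknown. Both AV mice were above all BA mice, and the log2 fold change was 2.16 ± 0.42 (limma adjusted p = 0.0110), or 1.69 with a pseudocount of 5. Rbm20 was named after its values were seen. Rbm39, the most abundant Rbm gene, had 1751, 1399 and 2227 in BA mice and 1100 and 993 in AV mice, and at -0.75 ± 0.26 it did not pass the test (limma adjusted p = 0.0725).

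Of 38 helicases 3 fell and 0 rose, 7.89% against 29.7% of all genes. Limma gave 5 of the 38 helicases at an unadjusted p under 0.05, all of them lower in AV mice, where 43.2% of all genes passed that limit and 23.0% passed it as lower. Ddx17 had the lowest adjusted p of all members (GRCm38 chr15:79527736-79546741, minus strand). It had 4032, 3368 and 3833 in BA mice and 1586 and 1485 in AV mice. The AV mice were close to each other and far below every BA mouse, with a log2 fold change of -1.28 ± 0.22 (limma adjusted p = 0.00713), which stayed between -1.36 and -1.23 whichever mouse was left out. Dhx33, a DEAH-box helicase of ribosomal RNA synthesis and translation, had 291, 267 and 261 in BA mice and 117 and 166 in AV mice. It fell by 0.96 on the log2 scale (SE 0.24, limma adjusted p = 0.0256), with no overlap. In the BA vs AP table the same BA mice had lower Dhx33 values, 236, 235 and 210, whereas their Ddx17 values were higher there, 4608, 4002 and 4566. The BA level of Dhx33 behind this call thus depended on the table, and the cause was not tested. Ddx3y, the Y-linked relative of the translation helicase Ddx3x, had 625, 677 and 854 in BA mice and 291 and 416 in AV mice. All 5 mice had a signal of the gene, the AV mice were below the BA mice, and the log2 fold change was -1.03 ± 0.27 (limma adjusted p = 0.0280). The calls on Dhx33 and Ddx3y were lost without any 1 of the BA mice or AV replicate 1. Of the 9 listed helicases that act in the spliceosome 0 were called and 6 were lower, with a median of -0.15, and 1 had an unadjusted limma p under 0.05. Of the 12 listed helicases of ribosome assembly 1, Dhx33, was called, 7 were higher and 5 lower, with a median of 0.12. Over all genes 51.5% were lower.

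**Figure D5:**
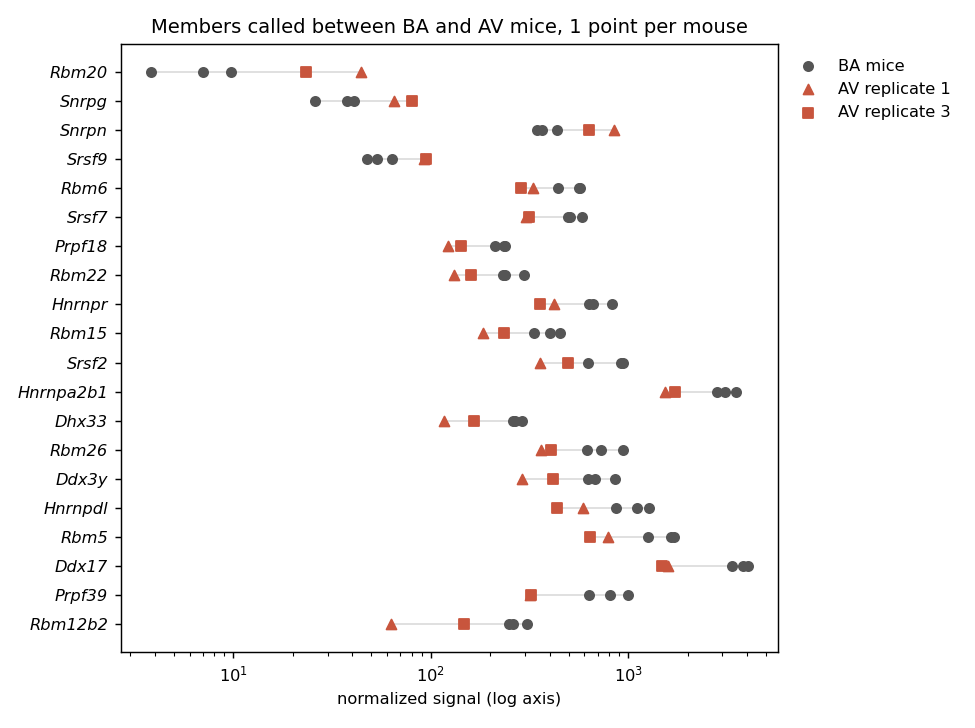
Normalized signal of the 20 members called between BA and AV mice, on a log axis, with 1 point per mouse (3 BA mice, AV replicates 1 and 3), ordered by log2 fold change. In no row do the groups overlap: Ddx17 lies at 3368 to 4032 in BA mice and 1485 to 1586 in AV mice, and Rbm20 at 3.80 to 9.74 and 23.4 to 44.3.

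Several members have a close paralog among the members, and the pairs were compared by their ratio within a mouse, which does not change when a library is scaled by a single factor. The ratio of Ddx17 to Ddx5 was 0.788, 0.750 and 0.710 in BA mice and 0.462 and 0.438 in AV mice. Ddx5 itself had 5115, 4490 and 5396 in BA mice and 3432 and 3388 in AV mice, without overlap, and at -0.55 ± 0.21 it did not pass the test (limma adjusted p = 0.0964). So both paralogs were lower in each AV mouse, and Ddx17 by more. The ratio of Ddx3y to Ddx3x was 0.458, 0.462 and 0.540 in BA mice and 0.262 and 0.389 in AV mice, again lower in both AV mice. Ddx3x had a log2 fold change of -0.43 ± 0.21 (limma adjusted p = 0.167), with AV mice below BA mice. The ratio of Hnrnpdl to Hnrnpd was 3.26, 2.66 and 2.37 in BA mice and 0.983 and 1.02 in AV mice. Hnrnpd had 341, 325 and 541 in BA mice and 602 and 430 in AV mice, which overlap (log2 fold change 0.38 ± 0.31). The ratio of Rbm4b to Rbm4, splicing factors encoded side by side, was 0.742, 0.823 and 0.681 in BA mice and 0.305 and 0.447 in AV mice. Neither gene was called, with log2 fold changes of -0.72 ± 0.32 for Rbm4b and 0.29 ± 0.28 for Rbm4. Reads of Rbm4 may be shared with the overlapping gene Gm21992. Of the mRNA export helicases, Ddx39 was listed in both tables and Ddx39b only in the BA vs AP table. Ddx39b had a BA mean of 743 there, so absence from the BA vs AV table does not stand for a low level. Why such a gene is missing is not given in the sources used here. Ddx39 had 56.7, 46.6 and 35.8 in BA mice and 65.7 and 38.0 in AV mice, which overlap. Its log2 fold change was 0.13 ± 0.32, below 0 without BA replicate 3 (-0.04) or AV replicate 1 (-0.26).

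The upstream sequences of 5 called members are shown because these members fell or rose in AV mice and carry the letters of known promoter elements at different places. They are the 120 bases before the RefSeq start of the gene on its own strand, 5′ to 3′, in GRCm38.p6, for Ddx17 at chr15:79546742-79546861 (minus), Prpf39 at chr12:65036214-65036333 (plus), Hnrnpr at chr4:136310822-136310941 (plus), Srsf2 at chr11:116853095-116853214 (minus) and Snrpg at chr6:86371420-86371539 (plus). Capitals mark matches of the GC box GGGCGG, the CCAAT box CCAAT and the TATA box TATAAA on either strand, so that ATTGG and CCGCCC are matches on the other strand.
Ddx17: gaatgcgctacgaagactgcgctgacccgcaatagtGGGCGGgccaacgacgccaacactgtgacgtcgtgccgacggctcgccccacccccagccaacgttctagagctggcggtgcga
Prpf39: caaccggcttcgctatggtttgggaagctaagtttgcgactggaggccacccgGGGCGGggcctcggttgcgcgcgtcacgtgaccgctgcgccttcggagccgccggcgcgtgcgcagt
Hnrnpr: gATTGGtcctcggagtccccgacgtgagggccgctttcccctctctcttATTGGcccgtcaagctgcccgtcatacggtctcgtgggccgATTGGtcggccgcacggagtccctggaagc
Srsf2: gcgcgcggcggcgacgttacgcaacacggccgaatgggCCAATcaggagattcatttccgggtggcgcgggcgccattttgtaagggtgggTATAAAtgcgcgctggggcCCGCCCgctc
Snrpg: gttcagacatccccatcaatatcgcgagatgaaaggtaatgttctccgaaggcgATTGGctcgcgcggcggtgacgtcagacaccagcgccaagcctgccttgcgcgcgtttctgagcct

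Hnrnpr held 3 inverted CCAAT boxes, whose first bases lay 119, 71 and 30 bases before the start. Srsf2 held a CCAAT box at 82, a TATA box at 29 and a GC box at 10 bases before the start, and no matches overlapped in the printed windows. Over all RefSeq entries of 300 bases (250 before to 50 after the start), 128 of the 149 members were matched. The CCAAT box was found in 47.7% of these members, against 38.9% of 9417 entries of genes listed in either table and 37.4% of all 32851 entries. The GC box was found in 60.9% of members, 64.6% of listed genes and 35.7% of all entries, and the TATA box in 9.38%, 7.02% and 13.6%. The ETS letters CCGGAAG were found in 31.2% of members, 18.3% of listed genes and 8.86% of all entries. The YY1 letters AAGATGGCG were found in 3.12% of members and in 3.33% of listed genes. Of the 13 matched members that fell in AV mice, 2 held the ETS letters (15.4%), 7 the CCAAT box (53.8%) and 8 the GC box (61.5%). These are counts of letters and not of bound sites.

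Other genes of the same machinery were read from lists. Of 61 other spliceosome proteins 50 were listed in the BA vs AV table, and by limma 5 of them fell and 0 rose (10.0% against 29.7% of all genes). At an unadjusted limma p under 0.05 there were 14 of the 50, a limit that 43.2% of all genes passed. Srrm1, a coactivator of the exon junction complex, went from a mean of 1546 ± 122 in BA mice (SD, n = 3) to 759 ± 161 in AV mice (SD, n = 2), and Snrnp70, the U1 particle protein, from 1649 ± 335 to 808 ± 14. They fell by 1.04 and 1.01 on the log2 scale (limma adjusted p = 0.0191 and 0.0239). Of 56 other splicing regulators 47 were listed, and 19 were called (40.4% against 29.7% of all genes). Of the 47, 8 rose and 11 fell, where 13.6% of all genes were called higher and 16.2% lower. Those that rose were Celf2, Celf5, Elavl2, Elavl4, Khdrbs3, Nova2, Rbfox2 and Srrm3, of which the CELF, ELAVL, NOVA and SRRM3 proteins are known for neuronal exons. Other members of the list known from neurons, named after their values were seen, did not pass the test: Elavl3 was at -0.62 and Ptbp2 at -0.58 on the log2 scale, both with the AV mice below all BA mice, and Nova1 was at 0.03 with overlapping groups. In the same mice the 4 listed neuronal markers summed to 971 to 1307 in the BA group and 6702 to 9522 in the AV group, and their part in these rises was not tested. Celf5 went from 19.0 ± 3.0 in BA mice to 180 ± 40 in AV mice and Elavl2 from 9.69 ± 1.6 to 55.5 ± 11.6, with log2 fold changes of 3.17 ± 0.26 and 2.40 ± 0.26 (limma adjusted p = 0.00256 and 0.00319). Mbnl3, a muscleblind protein of exon choice, and Clk2, a kinase of SR proteins, fell most, from 75.9 ± 19.2 to 6.53 ± 2.82 and from 243 ± 42 to 89.3 ± 11.0. Clk1 and Clk4, further kinases of SR proteins, fell as well. Of 22 other RNA helicases 15 were listed, and 1 of them was called (6.67% against 29.7% of all genes). This was Dicer1, the microRNA-processing enzyme, which fell by 1.03 on the log2 scale (limma adjusted p = 0.0148), and 0 rose. An unadjusted limma p under 0.05 was reached by 3 of the 15, where 43.2% of all genes reached it.

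Called members covered a range of exon lengths in both directions, from 2958 bases in Srsf2 upward among those that fell and up to 6790 bases in Rbm20 among those that rose. The 16 members that fell had a median exon length of 7004 bases and a median GC content of 45.1%, the 4 that rose 1906 bases and 49.9%, and the other 108 members 5227 bases and 47.2%. Across the 128 members the log2 fold change against AV mice went with GC content at Pearson's r = 0.37 and Spearman's rho = 0.38, with exon length at r = -0.31 and rho = -0.29 and with mean log2 level at r = -0.40 and rho = -0.35. Over 9871 genes the same r values were 0.16, -0.09 and -0.08. These points share the same 5 libraries and genes are not independent replicates, so the values describe the table only. Over the 148 members of the other table the r with GC content had the opposite sign, -0.23.

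The comparison of AP with BA mice asked the same question of approaching behavior, and its 3 BA mice are those of the comparison above. Of 148 members 0 were called by limma, where 1 of 11820 genes (0.00846%) was called. At an unadjusted p under 0.05 limma gave 4 members, 2.70% against 7.77% of all genes, and all 4 were lower in AP mice, a direction in which 2.77% of all genes passed. Under each of the 13 other settings tried 0 members were called as well. BA and AP mice did not overlap for 15 members (10.1% against 12.1% of all genes), of which 11 were lower (6.45% of all genes were) and 4 higher (5.64% of all genes were). By sign 89 of the 148 members were lower in AP mice (60.1%, against 53.5% of all genes). By class the median log2 fold change was -0.08 for the snRNP and spliceosome core genes, 0.06 for the SR and hnRNP genes, -0.10 for the Rbm genes and -0.10 for the helicases, with -0.03 over all genes. The Rbm median was 0.02 without AP replicate 2, the SR and hnRNP median -0.02 without AP replicate 3 and 0.0035 without BA replicate 2. The log2 fold changes of members reached from -0.74 to 0.84. The 20 members called in AV mice lay between -0.66 and 0.27 in AP mice, with 14 lower and 6 higher.

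The 4 members with an unadjusted p under 0.05 were Ddx20, Ddx49, Ddx17 and Rbm12b2. Ddx20, a helicase of the SMN complex that assembles Sm rings, had 110, 73.8 and 59.1 in BA mice and 49.8, 44.5 and 45.3 in AP mice. All AP mice were lower than all BA mice, with a log2 fold change of -0.74 ± 0.27 (limma adjusted p = 0.545). Ddx49, a putative helicase of ribosome assembly that lay outside the naming rule, had 74.5, 64.0 and 71.9 in BA mice and 46.3, 57.3 and 30.1 in AP mice, likewise apart (log2 fold change -0.69 ± 0.27, limma adjusted p = 0.606). Its exons share 874 bases with Homer3 on the other strand. Ddx17 had 4608, 4002 and 4566 in BA mice and 3638, 2652 and 2686 in AP mice. Every AP mouse was below every BA mouse, at a log2 fold change of -0.57 ± 0.23 (limma adjusted p = 0.606). Its ratio to Ddx5 was 0.796, 0.750 and 0.723 in BA mice and 0.579, 0.514 and 0.404 in AP mice, while Ddx5 had a log2 fold change of 0.05 ± 0.22 and overlapping groups, and its sign changed without BA replicate 2 or AP replicate 3. In AP mice too the ratio was below that of all BA mice. Rbm12b2 had 298, 278 and 345 in BA mice and 261, 205 and 133 in AP mice, and its near copy Rbm12b1 had 72.5, 103 and 85.3 and 118, 116 and 117. The copies were apart in opposite directions, with log2 fold changes of -0.66 ± 0.28 and 0.44 ± 0.22 (limma adjusted p = 0.638 and 0.685), and their sum was 371 to 431 in BA mice and 251 to 379 in AP mice, which overlap.

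The other named members did not pass the test in AP mice. Of the spliceosome core, Prpf40b, a U1-associated protein, had 254, 155 and 183 in BA mice and 154, 150 and 135 in AP mice, just apart, and Sf3b4 had 128, 129 and 81.7 and 79.3, 125 and 55.0, which overlap. Snrpn had 380, 530 and 414 in BA mice and 423, 460 and 563 in AP mice, also overlapping. The log2 fold changes were -0.40 ± 0.25, -0.43 ± 0.34 and 0.13 ± 0.24. Among core genes with a group mean of at least 50, Prpf38a and U2af2 were highest at 0.18 ± 0.22 and 0.16 ± 0.22. Among SR and hnRNP genes Hnrnpll, a splicing regulator in lymphocytes, was highest at 0.32 ± 0.28, followed by Srsf10 at 0.24 ± 0.21. Hnrnpdl and Hnrnpr were lowest at -0.29 ± 0.26 and -0.24 ± 0.22. Srsf9, Srsf10 and Hnrnpc lay higher in all AP mice than in all BA mice, Srsf9 with 71.3, 62.5 and 73.1 in BA mice and 89.6, 75.7 and 77.7 in AP mice. Its log2 fold change was 0.23 ± 0.21 (limma adjusted p = 0.786). Among helicases Ddx55 was at -0.69 ± 0.31, Ddx10 at 0.43 ± 0.36 and Dhx32 at 0.36 ± 0.25, each with overlapping groups. Ddx39b, the mRNA export and spliceosome assembly helicase, had 992, 660 and 577 in BA mice and 679, 677 and 582 in AP mice, which overlap. Its log2 fold change was -0.17 ± 0.26, and 0.06 without BA replicate 1. Rbm19 was at -0.59 ± 0.47, with 70.2, 71.7 and 46.1 in BA mice and 74.8, 48.0 and 18.2 in AP mice, and Rbm7, a cofactor of nuclear RNA decay, at 0.34 ± 0.33, and -0.01 without BA replicate 1.

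In AP mice, of 55 listed other spliceosome proteins, 48 other splicing regulators and 17 other RNA helicases 0 were called by limma, where 0.00846% of all genes were, and 0, 2 and 0 had an unadjusted p under 0.05, against 7.77% of all genes. Celf5 had a mean of 82.0 ± 101 (SD, n = 3) against 22.9 ± 2.4 in BA mice and a log2 fold change of 1.04 ± 0.74 (limma adjusted p = 0.737). Elavl2 had 20.7 ± 3.8 against 11.1 ± 3.0, with all AP mice above all BA mice, and 0.86 ± 0.26 (limma adjusted p = 0.445). Mbnl3, which had fallen in AV mice, was at 64.1 ± 17.7 against 70.1 ± 8.9, with overlapping groups.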

How the data were processed

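The authors sequenced strand-specific libraries and deposited a normalized signal per gene and mouse (TMM, a low-count filter and batch correction with ARSyN), which is not a read count. Which table ARSyN was applied to is not given in the sources used here. Values of the same BA mice differed between the tables by gene, with Dhx33 higher and Ddx17 lower in the BA vs AV table. What such a correction did to the spread between mice was not tested. The call counts of the tables can therefore not be set directly against each other. The submitters' processing notes name Salmon 1.2, bcl2fastq 2.20 and GRCm38.p6. Identifiers were matched to GENCODE M21 for symbols, exon length and GC content, and upstream sequences came from RefSeq. Fits were made for each table alone in R 4.3.3 (limma 3.58.1, no covariates) and covered all its genes after log2(value + 1), with Benjamini-Hochberg adjustment and calls at an adjusted p under 0.05. The study's own test, NOISeq, was not run. Steps of 1 read among the low values with AP mice (78.96% to 89.72% of them, within 0.02 of a read) gave its depth, and such limits cover counting error only. AV replicate 2 was not used.

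Named genes were, in each class, the 4 called members with the largest rise and fall in AV mice where a group mean reached 50, the 2 with the largest rise and fall in AP mice at the same level, the 3 with the highest signal per kb in BA mice and 6 paralog pairs, and of each further list the 2 called genes with the largest rise and fall. The members, classes, lists and tests were chosen with earlier results of these data known. The finer gene groups, the motifs, the printed sequences, and the naming of genes said to lie outside the rule, of the near copies and of Rbm20 came after the values were seen. Alternatives were an adjusted p under 0.01, a group mean of 20 or more, pseudocounts of 0.5 and 5, centring on the median of each mouse, a variance prior that follows the mean, the replicate number as a block and leaving out each mouse.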

Additional observations from a re-analysis of the deposited data

How the results depend on the processing

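In the AV comparison 4 members were called higher and 16 lower. At an adjusted p under 0.01 these counts were 0 and 1, 0.781% of members against 11.7% of all genes. With the variance prior that follows the mean, 27 of 128 members were lower, where 1902 of 9872 genes were. Under that prior the lower share of members was slightly above that of all genes, unlike in the main fit. In both directions together 24.2% of members and 34.8% of all genes were called. With the replicate block the counts of members called were 0 and 0, where 970 of all genes (9.83%) were called. The block fit also estimates an effect of each replicate number, and BA replicate 2 has no AV partner. It leaves less information on the spread, so its counts cannot be set directly against those of the main fit. Leaving out each mouse gave 1 to 4 higher and 2 to 18 lower, and the median log2 fold change ranged from -0.23 to -0.094 in the snRNP class, from -0.58 to -0.39 in the Rbm class and from -0.18 to 0.047 in the helicases. The snRNP median was -0.25 with each mouse centred, which moved the median of all genes from -0.03 to -0.10. Counts under the other settings stayed within 1.5 times. In the AP comparison 0 members were called under every setting, and leaving out each mouse gave an Rbm median of -0.14 to 0.022. With centring the fold change of Rbm12b1 in AV mice was -0.038. Leaving out each mouse gave ranges that crossed 0 for Snrpb (-0.48 to 0.14), Ddx39 (-0.26 to 0.52) and Rbm12b1 (-0.91 to 0.99) in AV mice and for Rbm7 (-0.012 to 0.62), Ddx39b (-0.33 to 0.062), Ddx5 (-0.026 to 0.16) and Mbnl3 (-0.30 to 0.088) in AP mice. The cause of these changes was not tested, apart from the fewer mice in each such fit. A fit without 1 AV mouse holds a single AV mouse, which is assumed to vary like the BA mice. Among the genes recomputed in this way no other changed sign.

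Deviations of same-numbered mice from their group means had an r of -0.06 and -0.04 for BA and AV, and of 0.02, 0.12 and 0.08 for BA and AP. With 2 AV mice, the deviations of one are those of the other with opposite sign, so the BA and AV values cannot decide on pairing. Whether a shared number stands for a pairing is not given in the sources used here. Each AP mouse correlated best with the BA mouse of its own number, but for AP replicate 1 this r was 0.0202 against 0.0136 with BA replicate 3. Deviations within a group sum to 0, so these matches are not independent and cannot decide on pairing. In the BA vs AV table only the pairs 1 and 3 exist.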
